A study of Homo sapiens with 4 samples.

Results

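Estrogen receptor alpha and the transcription factors that set up the luminal identity of breast cells were followed as 9 genes: the steroid receptors ESR1, PGR and NR3C1, the luminal factors FOXA1, GATA3, TBX3 and SPDEF, and the AP-2 factors TFAP2A and TFAP2B. They were chosen by name, with earlier results of these data known. All 9 are among the 33538 gene rows of the deposited expression matrix, here called the all-gene rows. ESR1, PGR, FOXA1, GATA3 and TBX3 also have a row among the 1253 rows of a targeted cancer panel, here called the panel rows, in which the same transcripts were read far more deeply. All cells were MM134 (MDA MB 134VI), a breast cancer line of the lobular type whose genotype is given as WT, and both groups were first deprived of hormone in charcoal-stripped serum. One group then received vehicle (0.01% ethanol) and the other 100 nM estradiol, each for 24 h, and 1 single-cell mRNA library was made per treatment. DNA repair libraries were also made and are not analysed here. The authors placed each cell in 1 of 3 cell-cycle phases and 1 of 8 clusters, by steps that are not given in the labels.

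Estrogen receptor alpha, the product of ESR1, is a nuclear receptor that binds estradiol and then activates or represses genes through estrogen response elements and other DNA sites. In luminal breast cells it works with FOXA1, a pioneer factor of the forkhead family that opens chromatin, with GATA3, a zinc-finger factor of luminal differentiation, and with AP-2 factors. PGR is a classic target gene of the receptor, and the glucocorticoid receptor NR3C1 shares chromatin sites and coregulators with it. Lobular carcinomas are mostly estrogen receptor positive, and TBX3, FOXA1 and GATA3 are among the genes mutated in breast cancer.

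The bases just before the transcription starts are shown for 4 genes, PGR because it had the highest ratio of estradiol to vehicle in the group, and FOXA1, GATA3 and TFAP2A because they hold matches to motifs of factors in the group. Sequences are from RefSeq (GRCh38.p14), 250 bases before an annotated start, read 5′ to 3′ on the gene's strand; capitals mark a motif match on either strand.
PGR, chr11:101129814-101130063, minus strand: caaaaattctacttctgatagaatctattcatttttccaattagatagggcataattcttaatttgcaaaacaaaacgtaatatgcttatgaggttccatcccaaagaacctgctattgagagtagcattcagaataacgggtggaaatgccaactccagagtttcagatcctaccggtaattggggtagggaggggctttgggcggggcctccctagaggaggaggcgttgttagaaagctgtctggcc
FOXA1, chr14:37595250-37595499, minus strand: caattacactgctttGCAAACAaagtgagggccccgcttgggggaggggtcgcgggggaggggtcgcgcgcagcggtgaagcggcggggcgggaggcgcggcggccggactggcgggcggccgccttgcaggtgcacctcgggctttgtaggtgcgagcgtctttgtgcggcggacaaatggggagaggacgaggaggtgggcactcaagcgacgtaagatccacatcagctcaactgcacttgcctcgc
GATA3, chr10:8045083-8045332, plus strand: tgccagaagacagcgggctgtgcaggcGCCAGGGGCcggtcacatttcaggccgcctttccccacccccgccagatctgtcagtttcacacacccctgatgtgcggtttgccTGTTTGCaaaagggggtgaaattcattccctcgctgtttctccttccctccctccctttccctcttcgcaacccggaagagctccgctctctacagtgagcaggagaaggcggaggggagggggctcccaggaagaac
TFAP2A, chr6:10419660-10419909, minus strand: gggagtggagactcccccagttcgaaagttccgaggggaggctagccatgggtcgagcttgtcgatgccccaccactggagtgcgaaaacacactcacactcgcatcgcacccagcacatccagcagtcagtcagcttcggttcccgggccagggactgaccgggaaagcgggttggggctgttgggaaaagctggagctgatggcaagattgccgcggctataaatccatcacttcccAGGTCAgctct
The capitals in FOXA1 are a forkhead match that starts 235 bases before the start. In GATA3 they are an AP-2 match 223 bases and a forkhead match 138 bases before the start. In TFAP2A they are a nuclear receptor core site 11 bases before the start. No match lies in the PGR window printed.

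The motifs searched were the palindromic estrogen response element (GGTCA, 3 free bases and TGACC), the nuclear receptor core site AGGTCA, the forkhead sites TGTTTAC and TGTTTGC, the GATA site AGATAA, the AP-2 site GCCNNNGGC and the palindromic glucocorticoid response element (AGAACA, 3 free bases and TGTTCT). Both strands were read, and matches could overlap; the core site shares its last 5 bases with an arm of the estrogen element. RefSeq entries were found for 8 of the 9 genes, and TBX3 was not matched. None of the windows of these 8 genes held the palindromic estrogen element, which 14 of 35116 windows of this length hold (0.0399%), or the glucocorticoid element, which 1 window holds. The core site was in 12.1% of all windows and, within the group, in TFAP2A only, in 1 of its 2 windows. Forkhead matches were in 6.09% of all windows and in windows of FOXA1, GATA3 and NR3C1, and AP-2 matches were in 19.8% of all windows and in windows of GATA3 and PGR. GATA matches were in 9.17% of all windows and in none of this group. These matches describe letters in a window and say nothing of binding.

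There were 4940 vehicle cells and 3367 estradiol cells, with medians of 2426.5 and 2676 panel UMIs and of 1199 and 1561 all-gene UMIs per cell. A UMI is a tag that counts 1 captured transcript. G1 cells were 50.5% of the vehicle library and 34.5% of the estradiol library, and the clusters differed in share too, cluster 2 holding 23.3% of vehicle cells and 2.44% of estradiol cells. The line's epithelial markers KRT8, KRT18, KRT19, EPCAM, KRT7 and MUC1 summed to 4458 CPM with vehicle and 5860 CPM with estradiol in the all-gene rows, CPM being UMI counts scaled to the library's total in that block. Immune markers summed to 0 and 0.337, with 6 of 8 genes at 0 in both libraries, endothelial markers to 0.434 and 0.337, with 2 of 5 at 0, and basal markers to 11.3 and 10.6, with 6 of 9 at 0. Of 8 mesenchymal markers only COL1A1 was detected in the all-gene rows, and the list summed to 26.0 and 21.1. The libraries shared 4 cell barcodes. With 1 library per treatment there was no spread between samples and no test, so levels and ratios are given with an exact 95% interval that covers counting error only. No cell type lacking these genes was present to measure free RNA.

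Estradiol-treated cells had more PGR transcript, about as much ESR1, and less of the other 7 genes, NR3C1 furthest down. In the panel rows the ratio of the median gene was already below 1, at a log2 of -0.11 over 940 genes with at least 50 UMIs, and median-of-ratios scaling puts this shift at -0.12. CCND1, the most abundant panel gene, took 109805 CPM of the vehicle and 147232 CPM of the estradiol library, and its part in the shift was not tested. Panel ratios are therefore read against that median. In the all-gene rows the median ratio was -0.03 over 10977 genes.

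**Figure D1:**
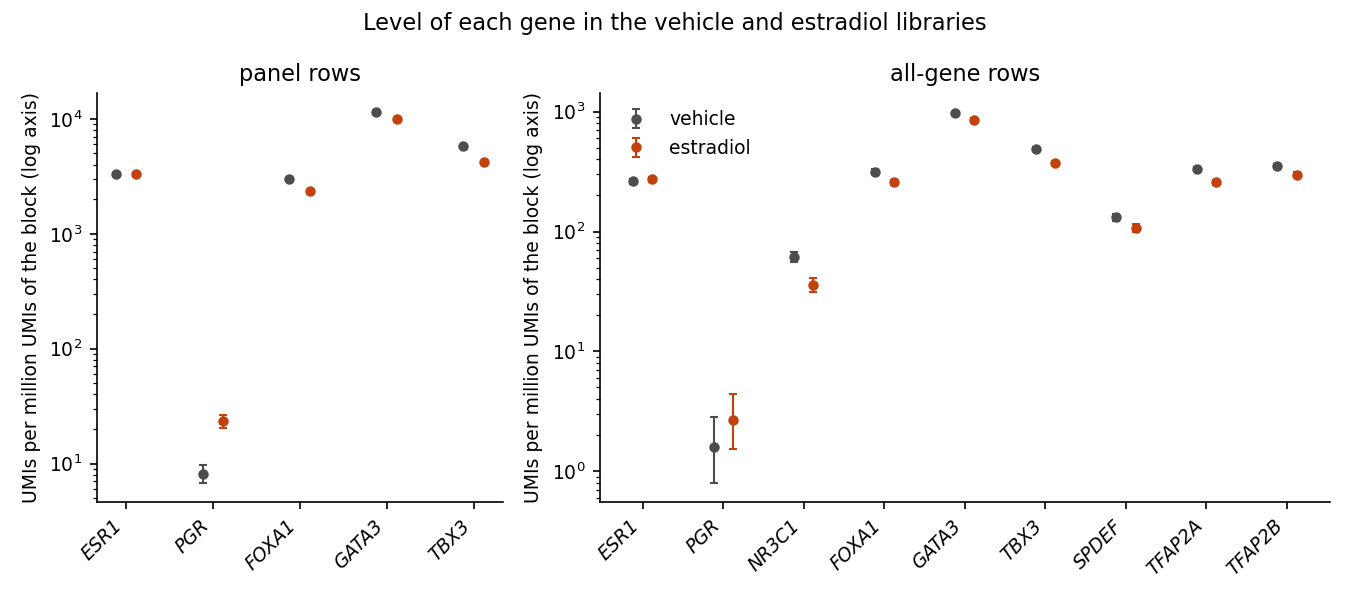
Level of each gene in the vehicle (grey) and estradiol (orange) libraries, in CPM of the block on a log axis, with the panel rows at the left and the all-gene rows at the right; bars are exact 95% Poisson intervals. PGR stands higher with estradiol in the panel rows (8.17 against 23.3 CPM), NR3C1 lower in the all-gene rows (61.6 against 35.7 CPM), and the intervals of ESR1 overlap in both.

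ESR1 (chromosome 6, 151656672 to 152129619) was at 3340 panel CPM with vehicle and 3322 with estradiol. Its log2 ratio was -0.01 (-0.03 to 0.01) by library total, 0.11 by median-of-ratios scaling and 0.06 in the all-gene rows (-0.04 to 0.16), so the sign depended on the scaling. Against other panel genes, 62.6% had a lower ratio. The all-gene rows gave 262 CPM with vehicle and 273 CPM with estradiol. By library total, the interval of the receptor's own ratio excluded 1 on neither block. This does not cover the value of 0.11 under median-of-ratios scaling.

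PGR (chromosome 11, 101029624 to 101129813), which encodes the progesterone receptor, was scarce in both libraries. It had 115 panel UMIs with vehicle and 241 with estradiol, and the fold between them was 2.85 (2.27 to 3.59). Of the 940 panel genes, 1 had a higher ratio. In the all-gene rows PGR had only 11 and 16 UMIs, with a log2 ratio of 0.76 (-0.44 to 2.01), so its direction rests on the panel. No cell held more than 2 PGR UMIs with vehicle or more than 6 with estradiol.

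NR3C1 (chromosome 5, 143277931 to 143435512) has no panel row. It was at 61.6 CPM (55.9 to 67.7) with vehicle, from 426 UMIs, and at 35.7 CPM (31.1 to 40.8) with estradiol, from 212. The intervals did not overlap, and the level was 1.72-fold lower with estradiol (1.46 to 2.04). Of all genes at the count minimum in these rows, 2.69% had a lower ratio.

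FOXA1 (chromosome 14, 37589552 to 37595249) was at 2973 panel CPM with vehicle and 2344 with estradiol, 1.27-fold lower (1.25 to 1.29). GATA3 (chromosome 10, 8045333 to 8075198) was at 11407 and 9924 panel CPM, 1.15-fold lower (1.14 to 1.16). TBX3 (chromosome 12, 114670255 to 114684175), a T-box repressor of mammary development, was at 5799 and 4211 panel CPM, 1.38-fold lower (1.36 to 1.39). In log2 these are -0.34, -0.20 and -0.46, or -0.23, -0.08 and -0.35 under median-of-ratios scaling, which leaves GATA3 closest to the typical panel gene. The all-gene rows, counted from the same cells, gave -0.30 for FOXA1, -0.18 for GATA3 and -0.39 for TBX3.

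SPDEF (chromosome 6, 34537802 to 34556329), an ETS factor of secretory and luminal cells, was at 132 all-gene CPM with vehicle and 106 with estradiol, 1.24-fold lower (1.12 to 1.37). TFAP2A (chromosome 6, 10396677 to 10419659) was at 332 and 258 CPM, 1.28-fold lower (1.20 to 1.37). TFAP2B (chromosome 6, 50818355 to 50847619) was at 354 and 298 CPM, 1.19-fold lower (1.12 to 1.26). These 3 genes have no panel row, and for each the intervals of the libraries were apart.

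Counted against a fold of 1.5, 1 of the 5 panel genes was higher with estradiol, where 3.3% of panel genes were, and 0 were lower, where 11.8% were. An interval wholly below a ratio of 1 was found for 3 of 5, beside 50.9% of panel genes, and wholly above for 1 of 5, beside 26.4%. In the all-gene rows 8 of the 9 genes reached 50 UMIs; 1 was at least 1.5-fold lower, beside 6.67% of genes, 0 were as much higher, beside 3.82%, and 7 had an interval below 1, beside 18.4%. The median log2 ratio was -0.20 for the panel members and -0.30 for the all-gene members that reached the minimum. An interval excludes 1 more readily for abundant genes, and the shares are given as a description.

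The panel did not enrich the 5 genes equally. ESR1 had 26.0 panel UMIs per all-gene UMI with vehicle and 21.2 with estradiol, and FOXA1 had 19.1 and 15.9. GATA3 (23.9 and 20.2) and TBX3 (24.1 and 19.6) were lower with estradiol as well. PGR, at 10.5 and 15.1, went the other way, but on 11 and 16 all-gene UMIs. These values are not scaled to the totals of the blocks. The totals were 14080930 panel and 6918198 all-gene UMIs with vehicle, and 10352943 and 5937422 with estradiol. A lower value with estradiol is therefore not read as weaker enrichment of a gene. Panel levels are compared within a gene only.

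**Figure D2:**
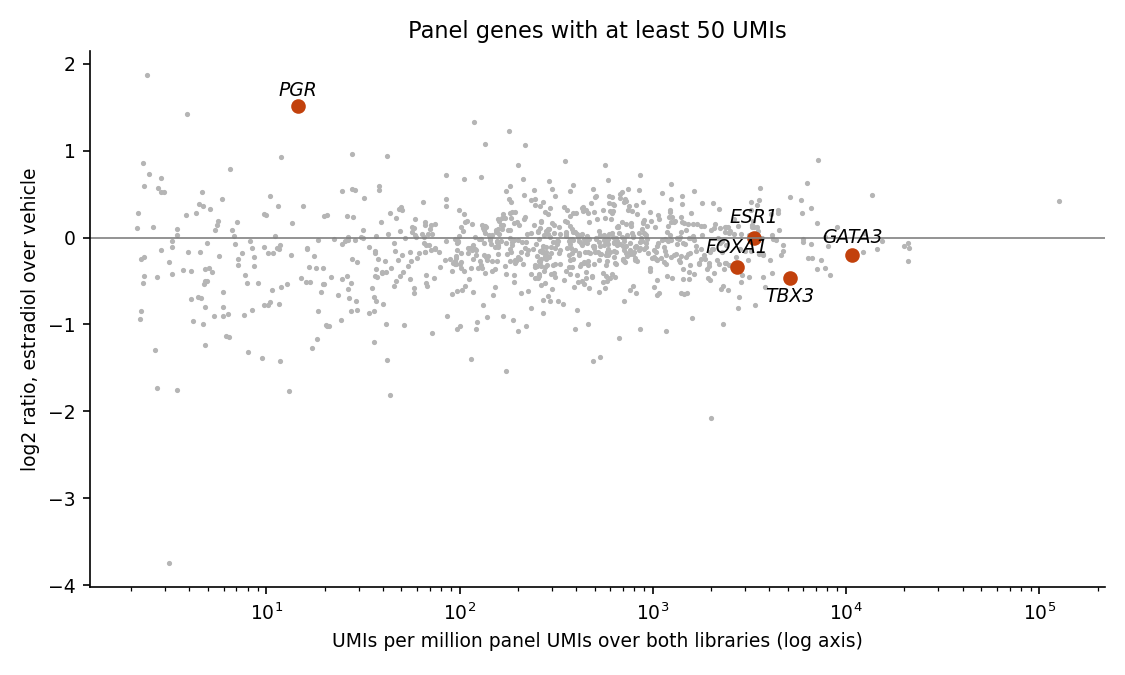
Each point is a panel gene with at least 50 UMIs, placed by its level over both libraries (panel CPM, log axis) and its log2 ratio of estradiol to vehicle; the 5 genes of the group are in orange. PGR is near the top at 1.51 and TBX3, FOXA1 and GATA3 lie below the line at 0, while ESR1 lies on it by library total and above it under median-of-ratios scaling.

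Within phases, the ESR1 ratio differed in direction. In G1 it was at 3960 panel CPM with vehicle and 4292 with estradiol, a log2 ratio of 0.12 (0.09 to 0.15). In S it was at 3445 and 3104 CPM, a ratio of -0.15 (-0.20 to -0.11), and in G2M at 2669 and 2718 CPM, a ratio of 0.03 (-0.01 to 0.06). By library total, G1 cells pooled over clusters were thus higher and S cells lower with estradiol. The clusters within G1 differed in share and in direction, as given below. Under median-of-ratios scaling the values were 0.21, -0.05 and 0.13, and in the all-gene rows 0.24 in G1 (0.09 to 0.38), -0.08 in S (-0.30 to 0.14) and 0.03 in G2M (-0.14 to 0.20). The phase difference itself could not be tested with 1 library per treatment.

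PGR was higher with estradiol in each phase, at 8.93 against 26.0 panel CPM in G1, 11.3 against 20.4 in S and 6.27 against 23.1 in G2M. The log2 ratios were 1.54 (1.03 to 2.06), 0.86 (0.15 to 1.61) and 1.88 (1.32 to 2.47), and the intervals of the 3 phases overlapped. No panel gene had a higher ratio than PGR in G1 or in G2M cells. NR3C1 was lower in each phase, at 54.9 against 32.9 all-gene CPM in G1, 48.0 against 31.2 in S and 73.6 against 41.0 in G2M. Its log2 ratios were -0.74 (-1.19 to -0.31), -0.62 (-1.21 to -0.03) and -0.84 (-1.20 to -0.49). For both receptors the direction was the same whichever phase the cells were in.

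FOXA1, GATA3 and TBX3 were lower with estradiol in every phase. FOXA1 had log2 ratios of -0.36 in G1, -0.36 in S and -0.25 in G2M, GATA3 of -0.15, -0.20 and -0.18, and TBX3 of -0.40, -0.45 and -0.40. Under median-of-ratios scaling these came to -0.26, -0.26 and -0.14 for FOXA1, -0.05, -0.09 and -0.08 for GATA3, and -0.30, -0.34 and -0.30 for TBX3. TFAP2A had -0.19 in G1 (-0.34 to -0.05), -0.54 in S (-0.75 to -0.32) and -0.36 in G2M (-0.52 to -0.20). For SPDEF the G1 value was -0.29 (-0.51 to -0.06), and the intervals in S and G2M included 0. TFAP2B was at -0.19 in G1, -0.10 in S (-0.32 to 0.11) and -0.26 in G2M.

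At least 1.5-fold higher with estradiol in the panel was 1 of 5 genes in each phase, PGR, beside 6.04% of panel genes in G1, 1.77% in S and 3.05% in G2M. At least 1.5-fold lower in the all-gene rows was 1 of 8 in each phase, NR3C1, beside 7.53%, 5.32% and 6.77%.

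**Figure D3:**
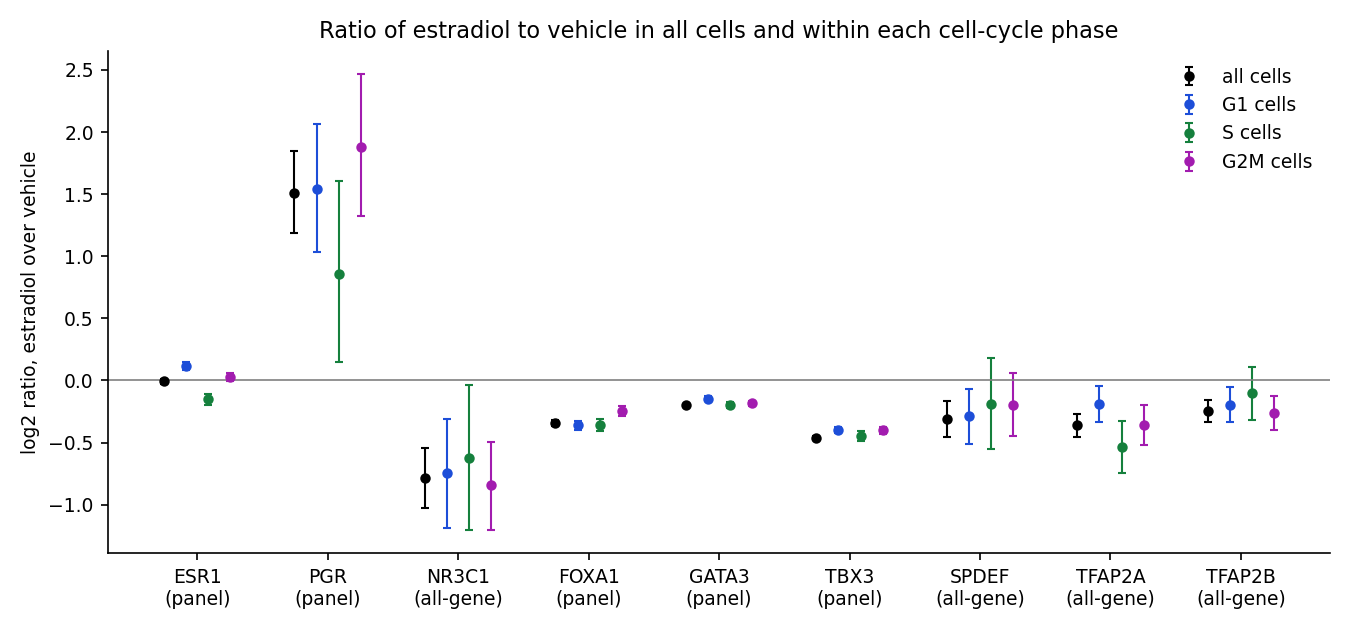
Log2 ratio of estradiol to vehicle for the 9 genes in all cells (black) and in G1 (blue), S (green) and G2M (purple) cells, from panel rows where there is one and otherwise all-gene rows; bars are exact 95% intervals of counting error. ESR1 lies above 0 in G1 (0.12) and below it in S (-0.15) by library total, an S value that shrinks to -0.05 under median-of-ratios scaling.

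Between phases of one library, most of these genes had their highest share of transcripts in G1. ESR1 was at 3960 panel CPM in G1 and 2669 in G2M of the vehicle library, 1.48-fold lower in G2M (1.45 to 1.51). With estradiol it was at 4292 and 2718, 1.58-fold lower (1.54 to 1.62). In these libraries 10.4% of panel genes with vehicle and 6.81% with estradiol had a lower ratio of G2M to G1 than ESR1. FOXA1 was 1.35-fold lower in G2M with vehicle and 1.25-fold with estradiol, GATA3 1.30-fold and 1.33-fold, and TBX3 1.28-fold and 1.29-fold. For S over G1 the log2 ratios of ESR1 were -0.20 with vehicle and -0.47 with estradiol. They were -0.22 and -0.21 for FOXA1, -0.24 and -0.29 for GATA3, and -0.43 and -0.48 for TBX3.

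SPDEF, at 163 CPM in G1 and 109 in G2M of the vehicle library, was 1.49-fold lower in G2M, and 1.40-fold lower with estradiol. TFAP2A was 1.27-fold and 1.43-fold lower. TFAP2B differed less between G2M and G1, with log2 ratios of -0.07 (-0.20 to 0.05) and -0.14 (-0.30 to 0.02). Its log2 ratios of S to G1 were -0.40 with vehicle and -0.31 with estradiol. Those of SPDEF were -0.64 and -0.54, and those of TFAP2A -0.15 and -0.50. NR3C1 was the exception in G2M. It was higher in G2M than in G1 of the vehicle library, with a log2 ratio of 0.42 (0.12 to 0.73), and its estradiol value of 0.32 had an interval from -0.16 to 0.80. For PGR no phase stood apart in either library, the G2M to G1 ratio being -0.51 (-1.16 to 0.12) with vehicle and -0.17 (-0.61 to 0.27) with estradiol.

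Of the 5 panel genes, 4 had an interval below 1 for G2M over G1 in each library, beside 41.7% of panel genes with vehicle and 36.5% with estradiol, and 4 of 5 for S over G1, beside 36.9% and 32.4%. At least 1.5-fold lower in G2M was 0 of 5 with vehicle, beside 9.8%, and 1 of 5 with estradiol, ESR1, beside 8.43%. In the all-gene rows an interval below 1 for G2M over G1 was found for 6 of 8 genes in each library, beside 14.2% with vehicle and 12.8% with estradiol. NR3C1 was the 1 of 8 above, with vehicle, beside 16.3%. Levels are shares of a block's UMIs, and G2M cells held more UMIs per cell than G1 cells, with medians of 3155 against 1922 panel UMIs with vehicle and 3131 against 2326 with estradiol.

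Across clusters ESR1 varied more than the other abundant panel genes of the group. Cluster 5, made almost wholly of G1 cells (97.0% with vehicle, 95.6% with estradiol), had the highest ESR1 level in both libraries, 6329 panel CPM (6167 to 6494) with vehicle and 5212 (5057 to 5369) with estradiol. The next cluster was at 4111 CPM with vehicle (cluster 3) and 3939 CPM (3577 to 4329) with estradiol (cluster 2). The lowest were 2219 CPM in cluster 7 with vehicle and 2464 CPM in cluster 4 with estradiol. In the vehicle library the order was 5, 3, 1, 2, 6, 0, 4 and 7, and no neighbours had overlapping intervals. With estradiol it was 5, 2, 3, 1, 0, 6, 7 and 4, and the intervals of clusters 2 and 3, and of clusters 0, 6 and 7 and clusters 6, 7 and 4, overlapped.

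The highest over the lowest cluster gave a fold of 2.85 for ESR1 with vehicle, larger than for 82.9% of 777 panel genes with at least 500 UMIs, and 2.12 with estradiol, larger than for 64.7% of 739. The same fold was 1.5 and 1.69 for FOXA1, 1.60 and 1.53 for GATA3, and 1.64 and 1.63 for TBX3, with medians over all those genes of 1.70 and 1.79. The clusters may have been built from these genes, so these folds describe the deposited grouping. In the panel FOXA1 was highest in cluster 2 in both libraries, at 3635 and 2973 CPM, and so was TBX3, at 7536 and 5882 CPM. With estradiol the intervals there overlapped clusters 5 and 6 for FOXA1, and clusters 5 and 7 for TBX3. Panel GATA3 was lowest in cluster 4, the cluster of G2M cells only, at 8138 and 7555 CPM. Panel TBX3 was lowest there too, at 4583 and 3608 CPM, the latter overlapping clusters 0 and 6. The all-gene rows placed the highest TBX3 in cluster 7, at 610 and 521 CPM. They placed the highest FOXA1 in cluster 2 with vehicle, at 384 CPM, and in cluster 5 with estradiol, at 314 CPM.

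The treatment ratio of ESR1 also differed by cluster. It was lower with estradiol in cluster 5, by a log2 of -0.28 (-0.34 to -0.22), in cluster 1 by -0.20 and in cluster 3 by -0.16. It was higher in cluster 7, by 0.18 (0.06 to 0.29), and the intervals of clusters 0, 2, 4 and 6 reached 0. Under median-of-ratios scaling, cluster 5 stayed at -0.27 while clusters 1 and 3 came to -0.07 and -0.04. Clusters 0, 2, 4 and 7 then lay above 0, at 0.15, 0.23, 0.09 and 0.29, and cluster 6 at -0.0014. All-gene ESR1 was at 223 against 315 CPM in cluster 6, with a ratio of 0.49 (-0.03 to 0.99), and at 0.78 (0.13 to 1.37) in cluster 2. By library total in the panel, FOXA1, GATA3 and TBX3 were lower with estradiol in all 8 clusters, FOXA1 from -0.23 in cluster 0 to -0.56 in cluster 7, GATA3 from -0.04 in cluster 5 to -0.30 in cluster 6, and TBX3 from -0.18 in cluster 5 to -0.75 (-0.85 to -0.65) in cluster 6. Under median-of-ratios scaling FOXA1 ran from -0.12 to -0.45, TBX3 from -0.17 to -0.63 and GATA3 from -0.0081 in cluster 4 to -0.19 in cluster 6. All-gene GATA3 was on the other side in cluster 5, at 942 against 994 CPM (ratio 0.08, -0.12 to 0.27).

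PGR was higher with estradiol in 7 of the 8 clusters. The exception was cluster 5, the cluster of most ESR1, where PGR was at 19.7 CPM (11.7 to 31.2) with vehicle and 16.9 CPM (9.2 to 28.4) with estradiol, from 18 and 14 UMIs. Its log2 ratio there was -0.22 (-1.34 to 0.87), and without the cells of cluster 5 the ratio over the rest was 1.69 (1.34 to 2.05). Elsewhere it ran from 1.20 (0.35 to 2.14) in cluster 1 to 2.94 (1.36 to 4.49) in cluster 6, the latter from 8 UMIs with estradiol and 9 with vehicle. With vehicle, cluster 5 had the highest PGR level of the 8, and its interval overlapped those of clusters 0, 1, 2, 3, 4 and 7.

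NR3C1 was lower with estradiol in each of the 8 clusters on few UMIs. The log2 ratio was -0.72 (-1.19 to -0.25) in cluster 0, -0.96 (-1.79 to -0.20) in cluster 4 and -2.04 (-3.48 to -0.80) in cluster 5, where 27 UMIs with vehicle stood against 7 with estradiol. In cluster 2 it had 63 UMIs with vehicle, 71.7 CPM (55.1 to 91.8), and 0 in 82 estradiol cells, where the exact interval reaches 59.2 CPM and overlaps that of vehicle. These are intervals of the levels. The exact interval of the ratio, as given for the other clusters, lay below a ratio of 1 in cluster 2, but it rests on 0 UMIs with estradiol. In clusters 1, 3, 6 and 7 the intervals included no difference.

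**Figure D4:**
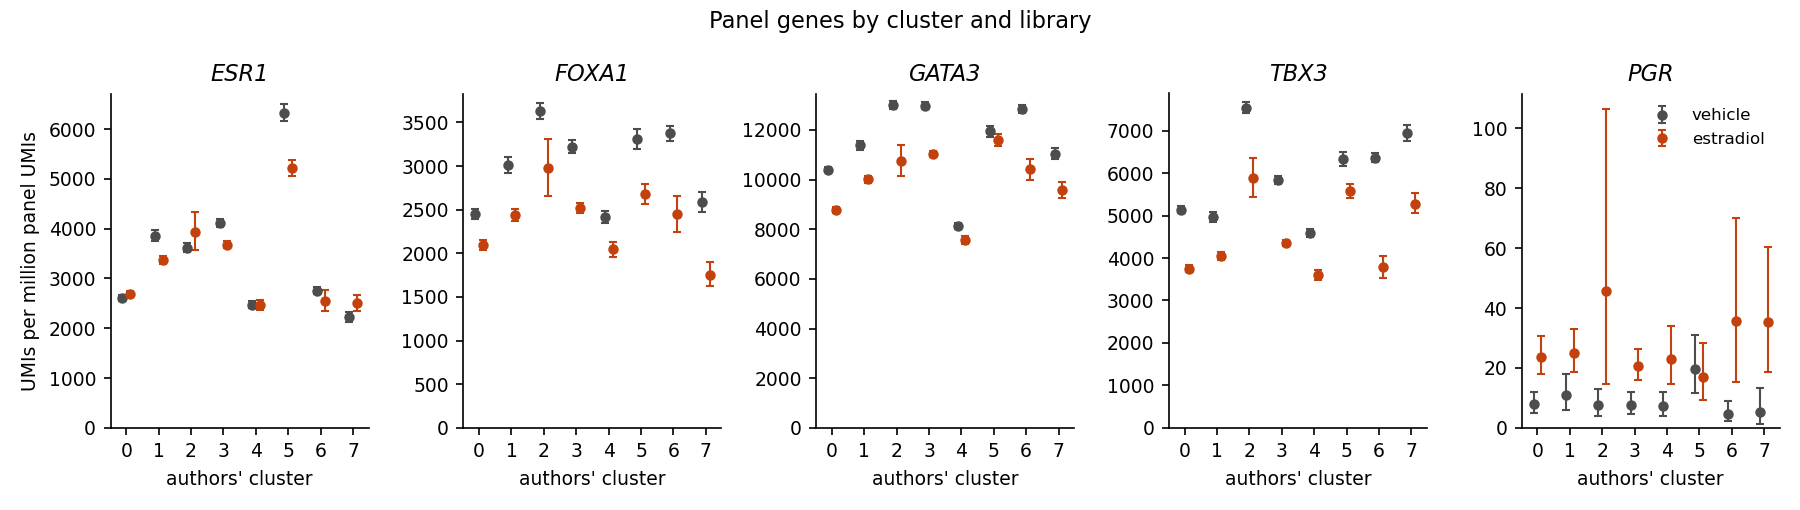
Levels of the 5 panel genes in each of the authors' 8 clusters (0 to 7), in panel CPM on a linear axis starting at 0, for vehicle (grey) and estradiol (orange); bars are exact 95% Poisson intervals. ESR1 peaks in cluster 5 in both libraries (6329 and 5212 CPM). The PGR value is higher with estradiol everywhere except in that cluster, on few UMIs and with wide intervals.

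The clusters and phases cross in G1. Cluster 5 was 14.2% of G1 cells with vehicle and 30.01% with estradiol, and cluster 2 was 43.2% and 6.02%. Cluster 6 was 23.9% and 6.36%, cluster 1 was 5.86% and 27.7%, and cluster 3 was 7.18% and 22.4%. Among G1 cells, ESR1 had a log2 ratio of -0.27 (-0.33 to -0.22) in cluster 5, -0.17 in cluster 1 and -0.12 (-0.17 to -0.06) in cluster 3. It was 0.22 (0.04 to 0.40) in cluster 7, and in clusters 2 and 6 the values of 0.10 and -0.12 had intervals that reached 0. The ratio over all G1 cells was 0.12, and without cluster 5 it was 0.17 (0.13 to 0.20). These G1 values are by library total. Over all cells, of any phase, median-of-ratios scaling left cluster 5 furthest below 0 (-0.27, beside -0.07 in cluster 1 and -0.04 in cluster 3). Over all cells, equal weight to each cluster gave ESR1 a ratio of -0.08.

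In single cells ESR1 was detected almost throughout, as were FOXA1, GATA3 and TBX3, while PGR was in few. At least 1 panel UMI of ESR1 was in 96.2% of vehicle cells and 97.9% of estradiol cells, and of PGR in 2.27% and 6.09%. Thinned to 1000 panel UMIs per cell, which left out 78 vehicle and 12 estradiol cells, the shares were 87.2% (86.2 to 88.1) and 89.3% (88.2 to 90.4) for ESR1. For PGR they were 0.843% (0.606 to 1.14) and 2.15% (1.68 to 2.69), and for FOXA1 90.9% and 87.5%. Thinned GATA3 was in 99.7% of cells of either library, and TBX3 in 98.1% and 95.9%. The intervals are exact binomial ones over cells of 1 library. Among the all-gene genes at 800 UMIs per cell, NR3C1 was in 4.89% (4.24 to 5.60) of vehicle cells and 3.28% (2.70 to 3.96) of estradiol cells, TFAP2A in 22.1% and 17.6%, TFAP2B in 24.0% and 20.9%, and SPDEF in 9.43% and 7.90%. Cells with fewer than 800 all-gene UMIs were left out of these shares. In cluster 2 the median cell held 748 with vehicle and 728.5 with estradiol, so most of that cluster was left out. It was 23.3% of vehicle cells and 2.44% of estradiol cells, so the shares describe differently selected cells. Before thinning, NR3C1 was in 8.02% and 5.91%, TFAP2A in 33.5% and 34.2%, TFAP2B in 35.7% and 37.3%, and SPDEF in 15.8% and 16.5%.

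At 1000 panel UMIs the mean ESR1 count was 3.30 (SD 2.88, 4862 cells) with vehicle and 3.34 (SD 2.69, 3355 cells) with estradiol. In cluster 5 the median cell held 6 ESR1 UMIs with vehicle and 5 with estradiol, and in the other clusters the median was from 2 to 4. Single cells overlapped between clusters, since the middle 90% of cluster 5 cells ran from 1 to 13 with vehicle and those of cluster 0 from 0 to 7.

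**Figure D5:**
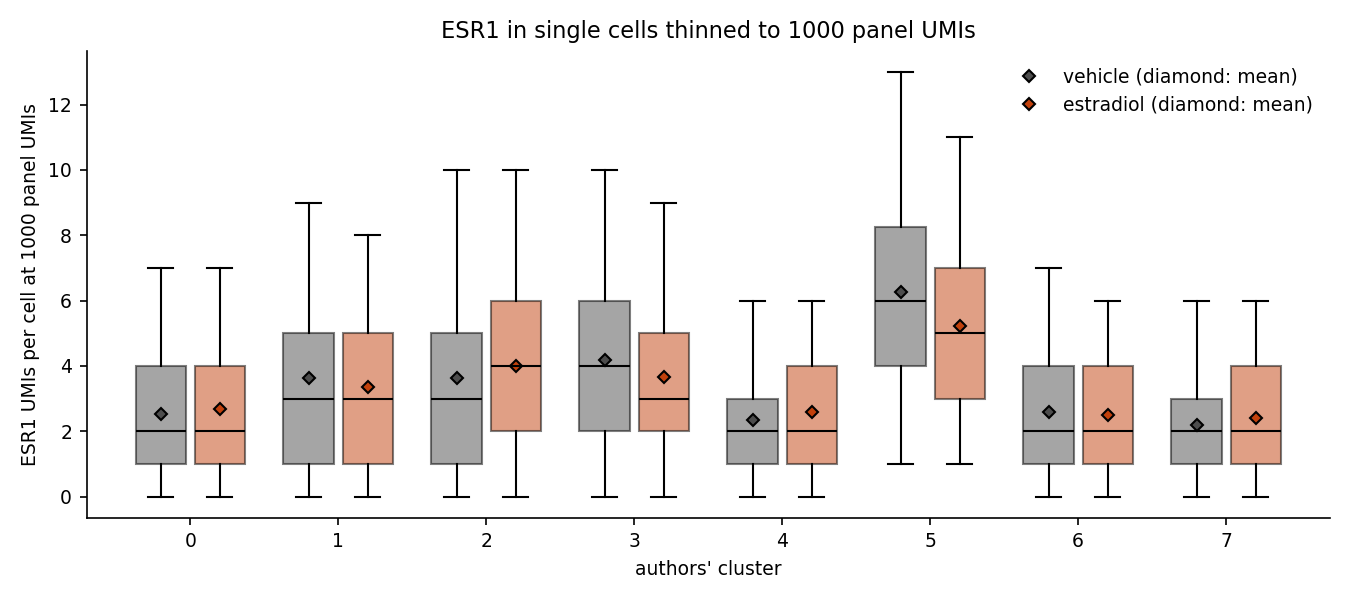
ESR1 UMIs per cell after thinning to 1000 panel UMIs, by the authors' cluster, for vehicle (grey) and estradiol (orange); the box spans the quartiles with the median line, whiskers reach the 5th and 95th percentiles and the diamond is the mean. Cluster 5 has medians of 6 and 5 UMIs against 2 to 4 elsewhere, with wide overlap between cells.

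ESR1 was also more uneven from cell to cell than its fellow genes. Its squared coefficient of variation beyond counting noise was 0.467 with vehicle and 0.358 with estradiol. FOXA1 had 0.186 and 0.156, GATA3 0.152 and 0.120, and TBX3 0.192 and 0.177, close to medians of 0.163 and 0.156 over panel genes averaging at least 1 thinned UMI per cell. The vehicle value for ESR1 was above that of 85.7% of 210 such genes, and the estradiol value above 80.9% of 204. Without cluster 5 it was still 0.436 and 0.337, and within G1 cells it was 0.474 and 0.307. These values treat cells of 1 library and have no test between libraries.

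Across cells, the genes of the group varied together only weakly. Pearson correlations of thinned counts between the 5 panel genes lay between -0.03 and 0.14 in both libraries (4862 and 3355 cells), within or just beyond the range that holds the middle 95% of panel gene pairs, -0.10 to 0.12 with vehicle and -0.09 to 0.12 with estradiol. FOXA1 with GATA3 had 0.14 and 0.10, and ESR1 with FOXA1 0.12 and 0.09. ESR1 with TBX3 had 0.05 and 0.14, and ESR1 with GATA3 0.06 and 0.13, both past that range with estradiol only. Values this small over cells of 1 library are no finding. Cells with a PGR UMI had a mean ESR1 count of 4.37 (SD 3.48, 41 cells) with vehicle, where cells without had 3.29, and of 3.12 (SD 2.55, 72 cells) with estradiol, where cells without had 3.35.

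Across the 16 combinations of treatment and cluster, the panel gene most like ESR1 in level was CACNA2D2, a calcium channel subunit gene, with a Pearson r of 0.84, followed by DLL3, a Notch ligand gene, at 0.81 and NOVA1, an RNA-binding splicing factor gene, at 0.80, among 812 genes. For FOXA1 these were CREB3L4, a membrane-bound transcription factor gene, at 0.95, the growth factor receptor gene FGFR4 at 0.90 and the interferon regulatory factor gene IRF2 at 0.90. GATA3 was most like IKBKB, the kinase gene of the NF-kappaB pathway, at 0.90, RHOB at 0.89 and NFKBIA, which encodes an inhibitor of NF-kappaB, at 0.88. TBX3 was most like WBP1 at 0.90, the DNA methyltransferase gene DNMT3A at 0.89 and the ligand gene TGFB3 at 0.88. Within the group r was highest for FOXA1 with GATA3, at 0.82, and lowest for ESR1 with TBX3, at 0.34. The combinations share 2 libraries and their depth, so r describes these cells only. PGR had fewer than 500 UMIs and was left out.

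Around these members, other genes of hormone signalling were counted by lists. The lists were chosen with earlier results of these data known, so the shares beside their counts are a description only. Of 33 other nuclear receptors, 21 reached 50 UMIs in the all-gene rows; 4 were at least 1.5-fold lower with estradiol, beside 6.67% of all genes, and 0 were as much higher, beside 3.82%. The 4 were NR2F1, an orphan receptor, at 9.68 against 3.37 CPM and a log2 ratio of -1.52 (-2.32 to -0.79), the retinoid-related receptor RORA at 36.9 against 17.7 CPM and -1.06 (-1.40 to -0.73), RARG, a retinoic acid receptor, at -0.71, and the lipid-sensing receptor PPARA at -0.62. The list median was -0.13, and that of all genes -0.03. In the panel rows 5 of the 7 listed receptors reached the minimum and 0 passed 1.5-fold, beside 3.3% of panel genes higher and 11.8% lower. The retinoic acid receptor RARA was the 1 that was higher, at 500 against 624 panel CPM (log2 ratio 0.32, 0.27 to 0.37), RXRA, the shared partner of many receptors, was at -0.26, and NR4A3 at -0.44 on 37 and 20 UMIs.

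Among receptor coregulators, 22 of 23 reached the minimum in the all-gene rows; 1 was at least 1.5-fold lower, beside 6.67% of all genes, and 0 as much higher, beside 3.82%, with a list median of -0.07 against -0.03 for all genes. The 1 was NCOA3, a steroid receptor coactivator, at 102 against 58.9 CPM (log2 ratio -0.80, -0.98 to -0.61), and the panel rows gave it -0.67 (-0.70 to -0.63). NCOA2, of the same coactivator family, was at -0.52. NRIP1, a corepressor that is itself a known estrogen target, was at 494 against 726 CPM, with a ratio of 0.56 (0.49 to 0.62), and the coregulator PELP1 was at 0.46 (0.21 to 0.71). NRIP1 and PELP1 were thus on the higher side and the coactivators NCOA2 and NCOA3 on the lower. In the panel all 9 listed coregulators reached the minimum, with 1 at least 1.5-fold lower (11.8% of panel genes were), again NCOA3, and a median of -0.16 beside -0.11 for all panel genes. TBL1XR1 was at -0.43 there, the corepressor NCOR1 at -0.32 and the acetyltransferase CREBBP at -0.23.

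Other luminal transcription factors went both ways. In the all-gene rows 18 of 24 reached the minimum, 2 were at least 1.5-fold higher, beside 3.82% of all genes, and 5 as much lower, beside 6.67%, with a median of -0.04 against -0.03 for all genes. TFAP2C, the AP-2 gamma gene, was at 62.0 against 137 CPM, 2.22-fold higher (log2 ratio 1.15, 0.98 to 1.32), whereas TFAP2A and TFAP2B were lower. ZNF703, a luminal oncogene of the zinc-finger class, was at 367 against 747 CPM (1.03, 0.95 to 1.10), and in the panel at 0.89. EHF, an epithelial ETS factor, was at -1.09 (-1.79 to -0.43) and the Krueppel-like factor KLF4 at -1.28 (-2.17 to -0.45). In the panel, 14 of 15 listed factors reached the minimum, 1 was at least 1.5-fold higher, beside 3.3% of panel genes, and 4 as much lower, beside 11.8%. The forkhead factor FOXP1 was at 4101 against 2395 panel CPM (-0.78, -0.80 to -0.75), KLF4 at -0.73 and SOX9 at -0.80 (-1.35 to -0.27) on 102 and 43 UMIs. The panel median of the list was -0.39, and that of all panel genes -0.11.

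Genes known to be induced by glucocorticoids were mostly lower beside the lower NR3C1. In the all-gene rows 13 of 16 reached the minimum. Of these, 8 were at least 1.5-fold lower, beside 6.67% of all genes, and 0 as much higher, beside 3.82%. The list median was -0.66, and that of all genes -0.03. TXNIP, which limits glucose uptake, was at 227 against 60.6 CPM (log2 ratio -1.90, -2.07 to -1.74), DUSP1, a phosphatase of MAP kinases, at 25.3 against 9.60 CPM (-1.40), the stress gene DDIT4 at 8.53 against 2.86 CPM (-1.57) and the Krueppel-like factor KLF9 at 5.35 against 2.53 CPM (-1.08). FKBP5, a chaperone of steroid receptors, was on the other side at 0.36 (0.03 to 0.69), and GLUL, the glutamine synthetase gene, at 0.28. In the panel 6 of 7 reached the minimum and 3 were at least 1.5-fold lower, beside 11.8% of panel genes, TXNIP (-2.08), DDIT4 (-1.10) and ERRFI1 (-0.60), with CEBPD at -0.50. Many of these genes also respond to other signals, and a link to NR3C1 was not tested. The list was chosen with earlier results of these data known, so its counts are no evidence about glucocorticoid-induced genes as a class.

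Of genes known as progesterone receptor targets, 6 of 13 reached the minimum in the all-gene rows. Of these, 2 were at least 1.5-fold higher, beside 3.82% of all genes, and 0 as much lower, beside 6.67%. The list median was 0.39, and that of all genes -0.03. WNT4, a secreted ligand of the mammary gland, was at 7.23 against 19.2 CPM (log2 ratio 1.41, 0.92 to 1.92) and AREG, an epidermal growth factor receptor ligand, at 105 against 198 CPM (0.91, 0.78 to 1.05). CCND1, the cyclin D1 gene, was at 0.42 in either block. In the panel, 5 of 7 reached the minimum, with WNT4 at 1.23 and the forkhead factor FOXO1 at -1.41 (-1.63 to -1.19) on opposite sides, STAT5B at -0.09 and a median of -0.03. Some of these genes are also direct estrogen targets, and 3 of them (FKBP5, SGK1 and ZBTB16) stand in the glucocorticoid list too.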

How the data were processed

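The authors deposited a matrix of natural log values for 8307 cells, in a block of all genes and a targeted panel block, with an annotation of treatment, cluster and phase. Counts of UMIs and genes per cell and the mitochondrial percent per cell were also deposited, per the file headers. The hg38 build and the tools UMI-tools 0.5.3, SAMtools, Bowtie2 2.3.2, cutadapt 1.8.3 and Cell Ranger 3.0.2 are named with no role or order, per the submitters' processing notes. The sequencing of the all-gene block is not described in the labels.

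UMI counts were recovered from the natural log values, which equal ln(1 + 10000 times count over cell total), and 100% of values came out whole within 1e-06. All deposited cells were kept. Doublets were not called; dropping the top 5% of cells by UMIs was tried. Counts were added up per library and scaled to its block total (CPM). Ratios have exact 95% Clopper-Pearson intervals conditional on the sum of both counts, levels exact Poisson and shares exact binomial intervals. All treat UMIs or cells as independent and cover counting error only. Genes entered counts of 1.5-fold differences from 50 UMIs over both libraries. Thinning, to 1000 panel or 800 all-gene UMIs per cell, used a fixed seed. Likeness is Pearson's r of log2(CPM + 1) over treatment and cluster, for genes with at least 500 UMIs. The 9 genes were always named, with up to 4 genes per list by size of ratio and the 3 most like panel genes. GLUL was named after its value was seen. A gene that the rule takes is not reported here. Members and lists were chosen with earlier results of these data known. Giving clusters equal weight, leaving out cluster 5 and thinning the all-gene rows were added after seeing the data. The ratio step was tested on simulated data. Python 3.11.15, numpy 2.4.6, scipy 1.17.1, pandas 2.3.3 and matplotlib 3.10.9 were used.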

Additional observations from a re-analysis of the deposited data

Results flagged for a closer look

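The ratio of estradiol to vehicle of ESR1 in the panel rows differed in sign between phases, with a log2 of 0.12 in G1 cells, -0.15 in S cells and 0.027 in G2M cells. With 1 library per treatment the difference was not tested. Among G1 cells the ratio was below 0 in clusters 1, 3 and 5 and above 0 in cluster 7, and in clusters 2 and 6 the intervals reached 0. The shares of these clusters among G1 cells differed between the libraries. Median-of-ratios scaling gave 0.21 in G1 cells and -0.05 in S cells.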

How the results depend on the processing

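No paired analysis was possible because each treatment has 1 library, and no replicate could be left out. Depth limits PGR in the all-gene rows and NR3C1 within clusters. All values here are log2 ratios of estradiol to vehicle in all cells. With a median-of-ratios size factor the panel ratios were 0.11 for ESR1, -0.23 for FOXA1, -0.084 for GATA3 and -0.35 for TBX3, and without the 10 most abundant genes in the total 0.055, -0.28, -0.14 and -0.40. As means over cells of the cell-scaled level they were 0.015, -0.39, -0.22 and -0.51, and in the all-gene rows 0.061, -0.30, -0.18 and -0.39, with PGR at 0.76. Equal weight to each phase gave GATA3 -0.17 and TBX3 -0.41, and cells with at least 800 all-gene UMIs gave -0.19 and -0.43. Equal weight to each cluster, chosen after seeing the data, gave ESR1 -0.083 and TBX3 -0.39. ESR1 thus changed sign among these settings, and the other 8 genes did not. NR3C1, SPDEF, TFAP2A and TFAP2B stayed within their counting intervals under each setting run on them; NR3C1 ran from -0.85 to -0.73. The cause of these shifts was not tested. Counts of listed genes past 1.5-fold depend on the minimum: from 1 UMI, 3 nuclear receptors were higher and 7 lower, and from 200 UMIs 1 was lower. Those from 1 UMI take in genes such as ESR2, with 4 UMIs with vehicle and 6 with estradiol. No share over all genes at these minimums stands beside the counts, so they are not read as a result.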
